A study of Rattus norvegicus with 16 samples.

Results

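Klk1c2 is a rat gene of the tissue kallikrein family, and 1 of the 1185 probes on the arrays carried it. Probes were matched by gene symbol. Of 1096 named genes among the tested probes, 1 other, Klk1b3, had a symbol starting with Klk and is described beside it. Klk1c2 was chosen because its value differed between the groups compared here, so its levels and their difference are given as a description and carry no test.

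The samples were extensor digitorum longus (EDL) muscle of the shank, composed mostly of fast fibres, from Brown-Norway rats aged 6 months. EDL denervated for 2 months was compared with control EDL that was innervated, with 8 arrays per group and rats numbered 1 to 8 in both. How the nerve was interrupted, and whether the control muscles came from the same animals, is not given in the sources used here. Each array was taken as 1 rat, since each title names 1. The labels do not describe how the animals were raised or assigned, so p-values measure only the spread between these arrays.

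Kallikreins are serine proteases that are made as inactive precursors and secreted. The best known family member releases the vasodilator bradykinin and related kinins from kininogens. In rats the family has expanded into a row of closely similar genes. RefSeq lists Ton, for tonin, among the older names of Klk1c2. Tonin is known from the rat submandibular gland as an enzyme that forms angiotensin II from angiotensinogen or angiotensin I. Klk1b3 carries Ngfg among its older names, which refers to the gamma subunit of the nerve growth factor complex described in mouse salivary gland.

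RefSeq's gene table for assembly GRCr8 placed 31 genes and pseudogenes with Klk symbols along chromosome 1, 24 of them protein coding and 7 of them pseudogenes. Klk1c2 was the 19th in that order and Klk1b3 the 31st. The nearest protein-coding Klk genes on either side of Klk1c2 were Klk1c6 and Klk1c8. None of the other 29 was represented by a named probe on the arrays. A membrane probe can also bind transcripts of close relatives, and whether part of either probe's value came from other family members was not tested.

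The promoter windows of both measured kallikreins are shown because the genes lie in 1 cluster, share an ancestry and were both higher in denervated muscle. Each window is from RefSeq (GRCr8) and covers 250 bases before to 50 bases after the annotated start, 5′ to 3′. Capitals mark E-boxes (CANNTG, the hexamer bound by myogenic and other helix-loop-helix factors) and a TATA-like run (TTTAAA). The Klk1c2 window is chr1:103632951-103633250 on the minus strand, and that of Klk1b3 is chr1:103845397-103845696 on the plus strand.
Klk1c2: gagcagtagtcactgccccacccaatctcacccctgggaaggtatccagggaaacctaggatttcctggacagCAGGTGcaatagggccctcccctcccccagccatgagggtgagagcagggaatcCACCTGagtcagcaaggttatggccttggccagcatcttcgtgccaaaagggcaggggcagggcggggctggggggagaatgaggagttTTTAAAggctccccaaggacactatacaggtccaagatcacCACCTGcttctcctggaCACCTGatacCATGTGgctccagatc
Klk1b3: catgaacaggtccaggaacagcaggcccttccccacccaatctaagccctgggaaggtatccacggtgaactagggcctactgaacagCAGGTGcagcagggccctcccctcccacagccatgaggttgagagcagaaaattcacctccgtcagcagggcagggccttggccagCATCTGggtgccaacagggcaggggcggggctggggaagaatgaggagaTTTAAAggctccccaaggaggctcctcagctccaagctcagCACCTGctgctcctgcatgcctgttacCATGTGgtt

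Over their 285 aligned bases the pair of windows was 83.5% identical, and the longest run they shared without a mismatch was 19 bases. Among the 8 other Klk1-type genes with a window, Klk1c6 was nearest to Klk1c2, at 94.2% identity over 292 bases. Klk1c12 shared the longest exact run, 109 bases. Klk1c9 was not compared. These figures describe the promoter windows and say nothing of how alike the transcripts are at the probes.

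The Klk1c2 window held 5 E-boxes on either strand and that of Klk1b3 held 4. At least 1 was present in 72.1% of the 33469 promoter windows in the RefSeq table, and at least 5 in 1.77%. The count is not particular to Klk1c2, since the windows of Klk1c6 and Klk1c8 also held 5. Those of the other Klk1-type genes compared held 3 or 4. The last E-box of the Klk1c2 window and of the Klk1b3 window, CATGTG, lies downstream of the start and takes in an ATG. The TATA-like run began 34 bases before the start in Klk1c2 and 27 before it in Klk1b3, and 13.6% of all windows held 1. Every Klk1-type window compared held 1 as well. The RUNX core TGTGGT, searched on both strands, was absent from the Klk1c2 window and present once in that of Klk1b3, against 17.3% of all windows. A match of this kind is not evidence of binding.

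The values behind the following results are normalised array readings on a logarithmic scale. The base of the logarithm is not given in the sources used here, so differences are stated in log units and never as folds. On every array 22 to 207 probes shared the lowest value, the floor of that array. A gene read at the floor may lie anywhere at or below it. Floors lay between 2.51 and 5.93 on denervated arrays and between 3.27 and 6.69 on control arrays. Mean readings over the 1176 tested probes were 8.19 to 8.31 on 15 arrays and 6.63 on that of control rat 6, which stood apart. The differences of both kallikreins, and those of several other genes named with a test, are therefore also given without it.

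Klk1c2 read 10.61, 10.47, 9.59, 9.26, 10.78, 11.13, 10.48 and 10.65 log units in the denervated muscles of rats 1 to 8. In the control muscles of rats 1 to 8 it read 7.53, 6.86, 6.69, 7.35, 5.88, 5.10, 7.60 and 8.50. The 8 denervated readings all lay above the 8 control readings, and the lowest of them, in denervated rat 4, was 0.76 above the highest control reading, in control rat 8. Such separation with the denervated group higher was seen for 1.19% of tested probes. Because the gene was picked from this contrast, nothing is read from that share.

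**Figure D1:**
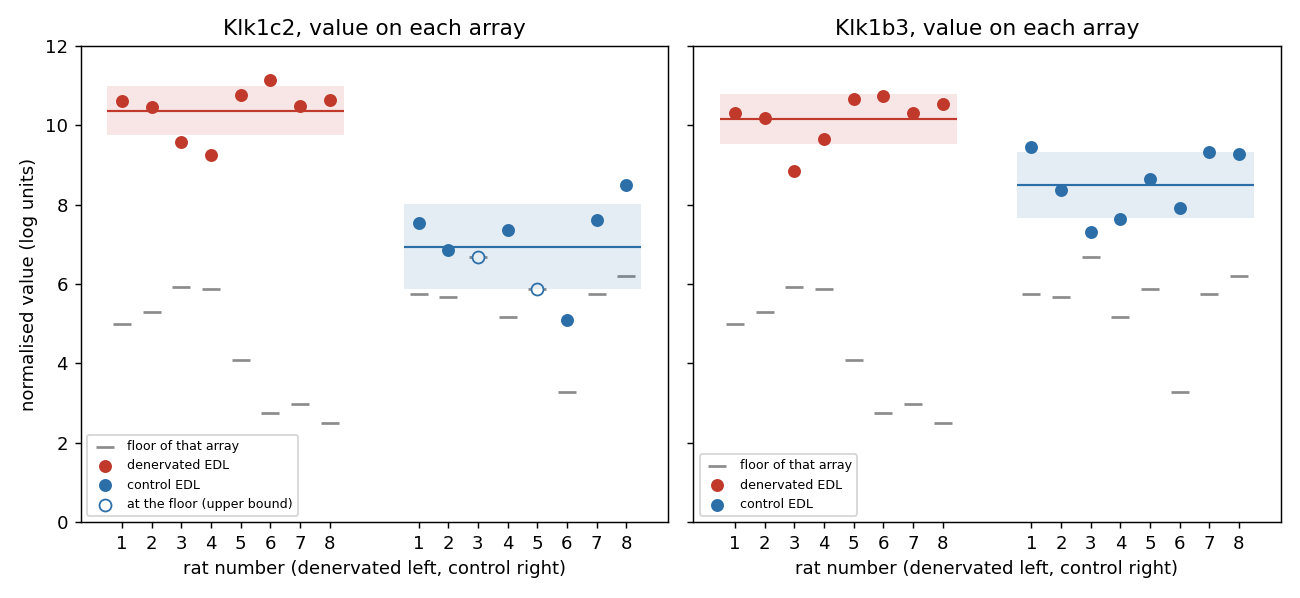
Readings of Klk1c2 (left panel) and Klk1b3 (right panel) on each array in log units, by rat number, with denervated arrays left of control arrays. Lines and bands are group means ± SD (n = 8 each), grey dashes are array floors, and open circles are readings at the floor. For Klk1c2 the groups do not overlap and control rats 3 and 5 sit on the floor, while for Klk1b3 denervated rat 3 falls within the control range.

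The group means were 10.37 ± 0.63 log units in denervated and 6.94 ± 1.07 in control muscle (SD, n = 8 each), a difference of 3.43. Without control rat 6 the difference was 3.17. In both control rat 3 and control rat 5 the reading was exactly the array's floor, so the control mean is an upper bound in that respect. The other 6 control arrays detected the probe above the floor, by up to 2.31 log units, and averaged 7.16. In denervated muscle all 8 arrays read above the floor, by 3.38 to 8.38. The margins were largest in denervated rats 5 to 8 (6.70 to 8.38), where floors were lowest, at 2.51 to 4.08. Floors were 4.99 to 5.93 in denervated rats 1 to 4 and 3.27 to 6.20 in control rats 5 to 8. Klk1c2 was thus measurable in most innervated EDL samples as well, within what the probe can distinguish from its relatives.

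Centring each array on its own median took out the low overall level of control rat 6. Klk1c2 then stood 2.06 ± 0.46 log units above the array median in denervated muscle and at -1.17 ± 0.84 relative to it in control muscle (SD, n = 8 each). Centred readings ran from 1.29 to 2.65 in the denervated group and from -2.51 to 0.28 in the control group. The groups lay farther apart than before centring, with 1.01 log units between the lowest denervated and the highest control reading. The centred difference was 3.23.

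Among denervated muscles, rats 3 and 4 read lowest, at 9.59 and 9.26, while the other 6 lay between 10.47 and 11.13. The group difference came to 2.88 for rats 1 to 4 and to 3.99 for rats 5 to 8 (n = 4 per group in each). All tested probes together had a median difference of -0.03 in the first set and of 0.55 in the second, which includes the low array. Within rats 1 to 4 the means were 9.98 ± 0.66 in denervated and 7.10 ± 0.40 in control muscle (SD). Within rats 5 to 8 they were 10.76 ± 0.28 in denervated and 6.77 ± 1.56 in control muscle (SD). In the first set the control readings were the tighter ones, and in the second set the denervated readings were. The labels name no batch, and whether the sets mark one was not tested.

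Leaving out each array in turn gave differences between 3.17 and 3.66, the highest without control rat 8. A single floor for all arrays, set at 6.69, gave 3.13, and quantile normalisation gave 3.17. No setting moved the difference by more than 1 standard deviation between rats, which was 0.88 pooled over the groups.

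**Figure D2:**
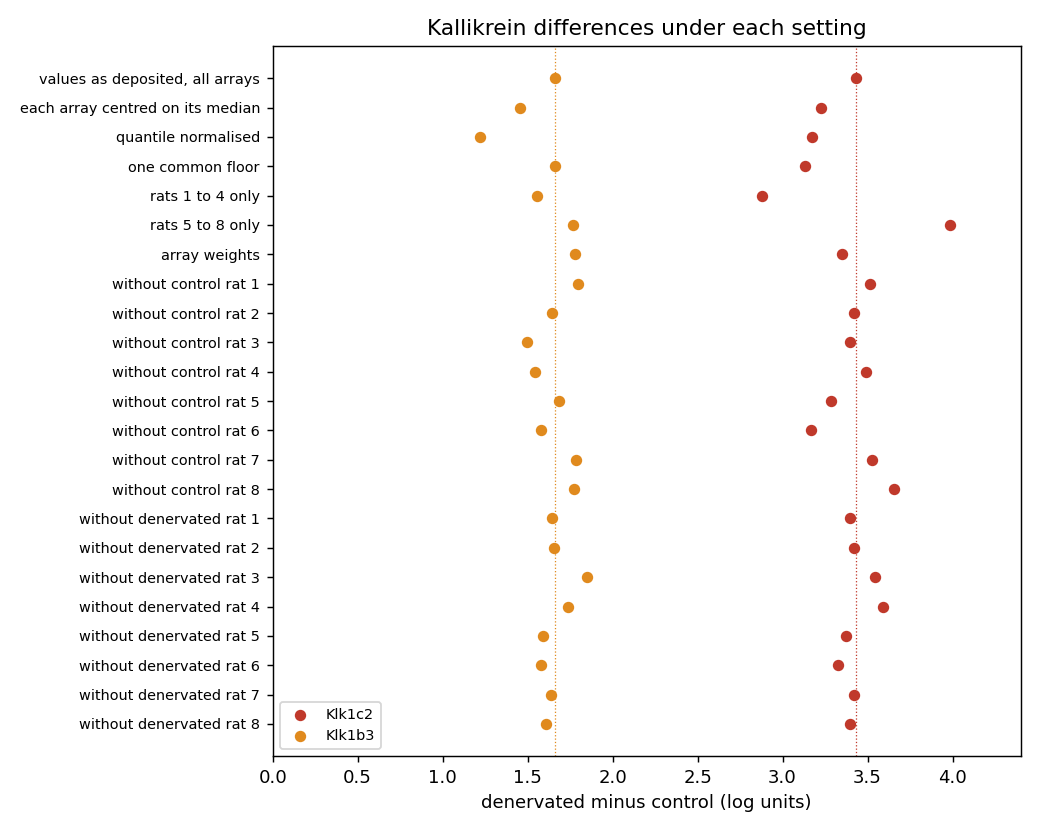
Difference between denervated and control muscle in log units for Klk1c2 and Klk1b3 under each scaling, subset of rats or omitted array, with dotted lines at the values from all arrays as deposited. Klk1c2 runs from 2.88 to 3.99 and Klk1b3 from 1.22 to 1.85. The settings reuse the same arrays and Klk1c2 was chosen for its difference, so the gap between the genes is not tested.

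Klk1b3, which was not used to choose Klk1c2, rose in denervated muscle. Its readings ran from 8.86 to 10.74 with a median of 10.31 log units in denervated muscle, and from 7.32 to 9.45 with a median of 8.51 in control muscle. Of the 8 denervated readings 7 lay above every control reading, the exception being denervated rat 3. No array was at its floor for this probe.

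The means of Klk1b3 were 10.16 ± 0.63 in denervated and 8.50 ± 0.82 in control muscle (SD, n = 8 each). They differed by 1.66 log units (SE 0.37, limma adjusted p = 0.00242, exact permutation adjusted p = 0.0320). Of all tested probes 5.44% were called higher at an adjusted p under 0.05 and 0.85% lower, 6.29% in all. The call held after centring (1.45, limma adjusted p = 0.00595), after quantile normalisation (1.22, limma adjusted p = 0.0243) and without control rat 6 (1.58, limma adjusted p = 0.00452). In rats 1 to 4 alone it was lost (1.56, limma adjusted p = 0.0905), and in rats 5 to 8 alone it passed (1.77, limma adjusted p = 0.00103).

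Klk1c2 differed by 1.77 log units more than Klk1b3, a gap that was not tested because Klk1c2 was chosen for its difference. In the order of differences over all 1176 probes Klk1c2 stood 5th and Klk1b3 28th. The probes just above Klk1c2 were those of the transcription factor Runx1 (3.54), the embryonic myosin heavy chain Myh3 (3.68) and the cytochrome c oxidase subunit Cox8a (4.84). Those just below it were the fatty acid desaturase Scd (2.97), the membrane glycoprotein Emb (2.97) and the calcium-binding protein S100a4 (2.88). Floor readings in control muscle numbered 3 of 8 for Runx1, 7 for Myh3, 6 for Cox8a and 5 for Scd, against 2 for Klk1c2 and none for Emb and S100a4. The order among genes with floor readings is accordingly not settled.

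**Figure D3:**
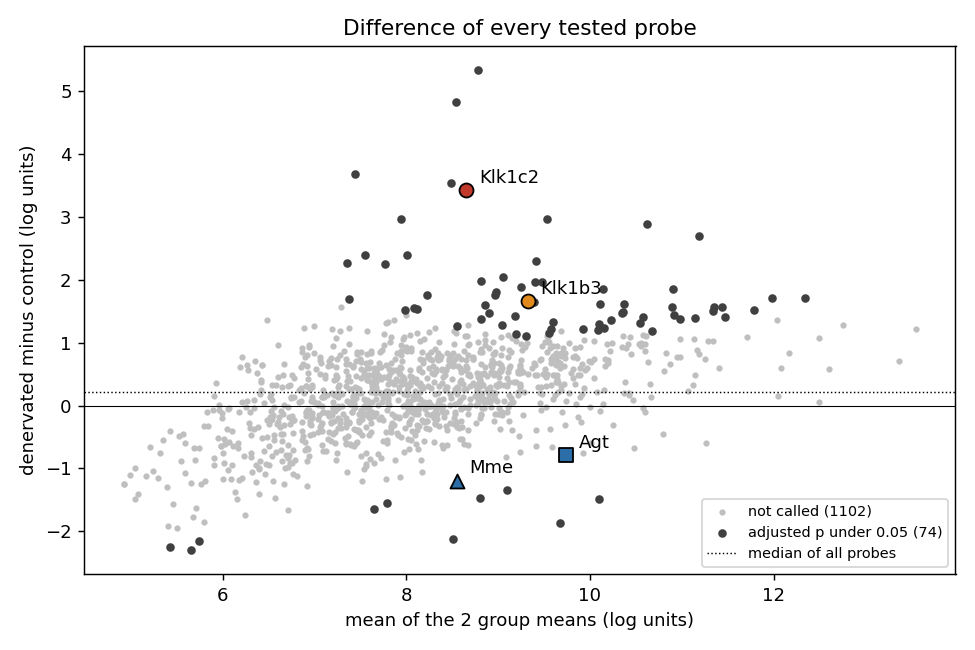
Difference between denervated and control muscle against the mean of the 2 group means for all 1176 tested probes, in log units. Dark points are the 74 probes with a limma adjusted p under 0.05, and the dotted line is the median difference of 0.22. Klk1c2 lies at 3.43 and Klk1b3 at 1.66, while Agt and Mme lie below 0.

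The tissue and the treatment were checked on other probes. Of 16 skeletal muscle markers listed, 6 were measured. Ckm, the muscle creatine kinase, Mylk2, the skeletal myosin light chain kinase, Cacna1s, the calcium channel of the muscle membrane, Pgam2, the muscle phosphoglycerate mutase, and Myf6, a myogenic factor, were above the floor on all 8 denervated and all 8 control arrays. Tpm1, a tropomyosin, was above it on 4 denervated and 3 control arrays. Of the 6, Mylk2 fell in denervated muscle (-1.87, limma adjusted p = 4.18e-04) and Myf6 rose (1.29, limma adjusted p = 0.0203), while the other 4 were not called. Over all tested probes 5.44% were called higher and 0.85% lower. Without control rat 6 both calls held, at -2.09 for Mylk2 (limma adjusted p = 2.19e-05) and 1.12 for Myf6 (limma adjusted p = 0.0223). Myf6 did not pass after quantile normalisation (0.76, limma adjusted p = 0.0594) or in rats 1 to 4 alone (0.57, limma adjusted p = 0.585), and Mylk2 did not in rats 5 to 8 alone (-1.07, limma adjusted p = 0.0840). The denervation genes Myog, the myogenic factor myogenin, and Ncam1, an adhesion molecule, were higher in denervated muscle by 1.85 and 1.96 log units (limma adjusted p = 3.79e-04 and 3.43e-04), and by 1.70 and 1.86 without control rat 6 (limma adjusted p = 5.26e-04 and 9.02e-04). In rats 1 to 4 alone Ncam1 did not pass (1.01, limma adjusted p = 0.298).

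The genes whose substrates or products are tied to kallikreins were sparsely represented. Of 32 listed genes of the kinin and angiotensin pathway, 5 were measured, and none was called (0 in limma, 2 at an unadjusted p, 0 by exact permutation). Of all 1176 tested probes, 74 (6.29%) were called in limma, 211 had an unadjusted p under 0.05 and 67 were called by exact permutation. With 5 genes measured, nothing is read from the absence of calls. The median of the 5 differences was 0.43, against 0.22 over all probes. No kininogen, kinin receptor, renin or angiotensin receptor gene was among the 5.

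Agt encodes angiotensinogen, the precursor that tonin can cleave. Its readings ran from 8.15 to 9.77 with a median of 9.50 log units in denervated muscle, and from 8.76 to 10.98 with a median of 10.26 in control muscle. The groups overlapped. The difference of -0.78 (SE 0.36) did not pass (limma adjusted p = 0.219), but it did after centring (-0.99, limma adjusted p = 0.0474), after quantile normalisation (-1.30, limma adjusted p = 8.90e-04) and without control rat 6 (-0.98, limma adjusted p = 0.0470). In rats 1 to 4 it was -1.60 (limma adjusted p = 0.0105), whereas rats 5 to 8 gave 0.03 (limma adjusted p = 0.971). The second set includes the low array of control rat 6. Relative to the array median, Agt in rats 5 to 8 ran from 1.07 to 1.29 in denervated muscle. In control muscle of the same set it ran from 1.11 to 2.20. As deposited, the difference of means was negative in the first set only. In the second set the denervated readings lay between 9.67 and 9.77. Control rats 7 and 8 read above them, at 10.08 and 10.42, and control rats 5 and 6 below them, at 9.50 and 8.76. Whether the sets differ was not tested.

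Mme encodes neprilysin, a membrane peptidase that degrades bradykinin and converts angiotensin I. It ran from 5.44 to 9.20 with a median of 8.41 log units in denervated muscle, and from 7.40 to 10.16 with a median of 9.25 in control muscle. Denervated rats 1 and 2 were lowest, at 6.46 and 5.44, and the remaining denervated readings lay within the control range. The low end of that range was control rat 6, whose array was low over all probes. The next lowest control reading was 8.61, in control rat 1. Denervated rats 3, 4 and 5 read below it, at 8.50, 7.95 and 8.32. The difference of -1.19 (SE 0.46) did not pass (limma adjusted p = 0.117), and did after centring (-1.40, limma adjusted p = 0.0474) and after quantile normalisation (-1.36, limma adjusted p = 0.0393). Without control rat 6 it was -1.44 and did not pass (limma adjusted p = 0.0539). In rats 1 to 4 it was -2.42 (limma adjusted p = 0.0162) and in rats 5 to 8 it was 0.03 (limma adjusted p = 0.973). That second set includes the low array of control rat 6. Relative to the array median, Mme in rats 5 to 8 ran from -0.22 to 0.71 in denervated muscle. In control muscle of the same set it ran from 0.41 to 1.23.

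Dpp3, a peptidase that degrades angiotensin peptides, differed by 0.73 (limma adjusted p = 0.358), and by 0.45 without control rat 6 (limma adjusted p = 0.554). The other members of the pathway list were the peptidases Prep and Nln, with differences of 0.61 and 0.43, neither of which passed.

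Of the serine proteases and protease inhibitors listed, 21 were measured besides the kallikreins. None was called (0 in limma, 3 at an unadjusted p, 1 by exact permutation). Over all 1176 tested probes these counts were 74 (6.29%), 211 and 67, so nothing is read from the absence of limma calls among 21. The median difference of the 21 was 0.32, with 14 positive and 7 negative, and the range was -1.74 to 1.03. Klk1b3, at 1.66, was therefore above every measured member of this list.

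F3, tissue factor, the receptor that starts blood clotting, came closest. It ran from 9.03 to 10.0015 with a median of 9.35 log units in denervated muscle and from 6.88 to 9.40 with a median of 8.67 in control muscle. The difference of 1.01 did not pass in limma (adjusted p = 0.0975) and passed without control rat 4 (1.15, limma adjusted p = 0.0476). Without control rat 6 it was 0.79 (limma adjusted p = 0.122). Mug1, a murinoglobulin that traps proteases, differed by -1.74 (limma adjusted p = 0.132) and by -2.29 without control rat 6 (limma adjusted p = 0.0302), with 3 denervated and 3 control arrays at the floor. Pzp, an inhibitor of the same macroglobulin type, differed by 1.03 (limma adjusted p = 0.240), or 0.55 without control rat 6.

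**Figure D4:**
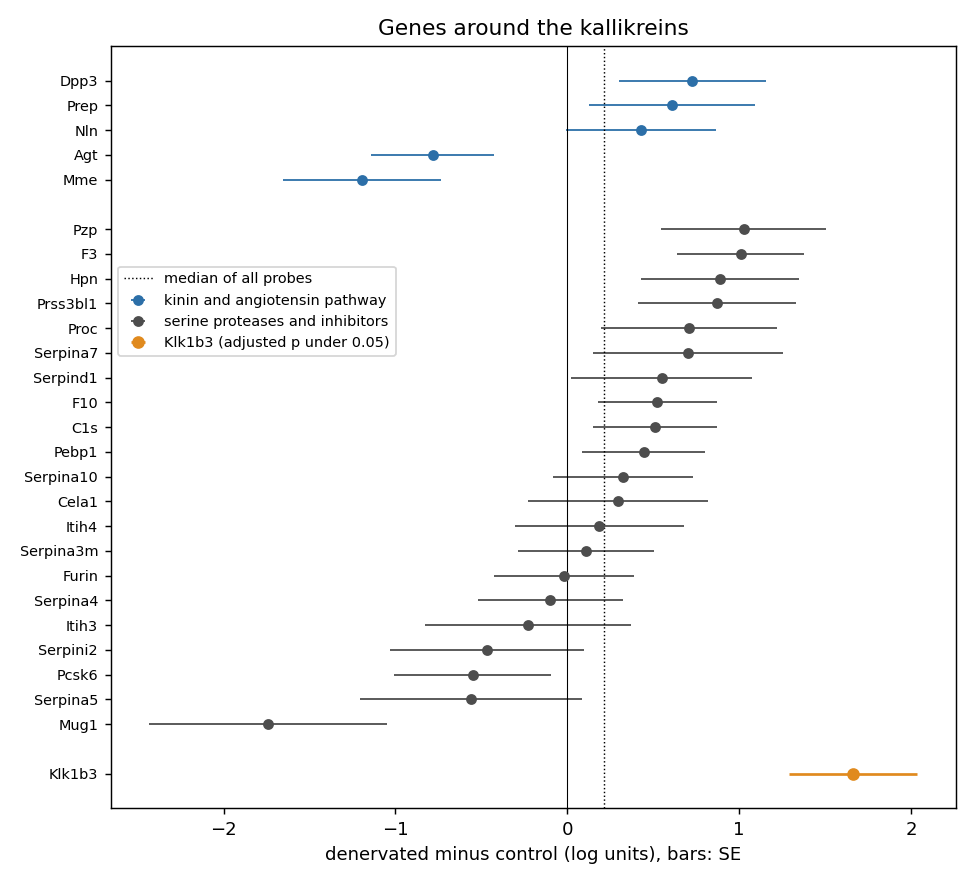
Difference between denervated and control muscle in log units (points) with its standard error (bars) for the 5 measured kinin and angiotensin genes, the 21 serine proteases and inhibitors, and Klk1b3. None of the 26 listed genes has a limma adjusted p under 0.05, and Klk1b3 at 1.66 is the highest point shown.

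Kallikrein-type proteases are also known in association with growth factors, but of 24 listed growth factors and receptors only Bdnf, a neurotrophin, was measured. It differed by 0.14 (limma adjusted p = 0.940), and by -0.07 after centring, by -0.17 after quantile normalisation and by -0.37 without control rat 6. No direction is read from it.

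Markers of other cells that could carry kallikreins gave few readings. Of 14 mast cell markers, 4 were measured and none was called (0 in limma, 0 at an unadjusted p). Over all tested probes 6.29% were called, so the absence of calls in lists this short is not read as a result. The 4 were Ms4a2, Fcer1a and Cpa3, with differences of 0.75, 0.67 and 0.35, and Srgn, with -0.14. Their mean level ran from 8.12 to 9.10 log units over the denervated arrays and from 6.29 to 8.66 over the control arrays. These are levels as deposited, with the low array of control rat 6 included. Relative to the array median they ran from -0.39 to 0.84 and from -0.92 to 0.54. Of 14 salivary gland markers, 2 were measured. They were Amy2a3, a pancreatic amylase at the floor on 1 denervated and 4 control arrays, and Vcsa2, at the floor on 4 control arrays. Neither was called, with differences of 0.52 and 1.26 (limma adjusted p = 0.715 and 0.241), and their mean level ran from 6.67 to 7.96 over denervated and from 3.27 to 8.20 over control arrays. The value of 3.27 is the floor of control rat 6. Relative to the array median the level ran from -1.81 to -0.53 over denervated and from -3.71 to -0.02 over control arrays.

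The measured fibroblast and matrix markers, like Klk1c2, read higher in denervated than in control muscle. Whether they followed Klk1c2 from array to array within the groups was not tested. All 3 that were measured, of 8 listed, rose, namely S100a4 (2.88, limma adjusted p = 5.06e-07), the proteoglycan Bgn (2.30, limma adjusted p = 3.24e-05) and the proteoglycan Dcn (1.40, limma adjusted p = 0.0318). Of all tested probes 5.44% were called higher. Without control rat 6, S100a4 stood at 2.69 (limma adjusted p = 6.52e-06) and Bgn at 1.92 (limma adjusted p = 1.46e-05). Dcn did not pass after centring (1.19, limma adjusted p = 0.0782), after quantile normalisation (0.39, limma adjusted p = 0.180) or without control rat 6 (1.16, limma adjusted p = 0.0563). Their mean level ran from 10.9979 to 12.10 log units over denervated and from 7.49 to 10.24 over control arrays, without overlap. Relative to the array median it ran from 2.40 to 4.12 and from 0.50 to 2.12. Taken singly, 2 of the 3 had groups that did not overlap, against 1.19% of all tested probes with the denervated group higher. The part of these cells in the Klk1c2 reading was not tested. In whole muscle, a change in the number of cells of a type and a change in the RNA made per cell cannot be told apart.

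Of 5 measured Schwann cell and nerve markers, 1 rose, the neurofilament Nefm (1.38, limma adjusted p = 0.0318), against 5.44% of all tested probes called higher. The Nefm call was lost after centring (limma adjusted p = 0.126), after quantile normalisation (limma adjusted p = 0.296) and without control rat 6 (limma adjusted p = 0.0563). Over the 5, the mean level ran from 7.62 to 9.16 log units over denervated and from 6.10 to 8.40 over control arrays. Relative to the array median that level ran from -0.98 to 0.99 and from -0.89 to 0.09. None of 3 macrophage and leukocyte markers was called (0 in limma, 3 at an unadjusted p, against 74 and 211 of all 1176 tested probes). Their directions differed, with Cd48 at 1.24, C1qb at 0.95 and Cxcl1 at -1.92 (limma adjusted p = 0.0688, 0.138 and 0.0550). Cxcl1 was at the floor on 7 denervated and 4 control arrays. The mean level of the 3, in which these directions offset each other, ran from 7.28 to 8.69 over denervated and from 7.23 to 8.97 over control arrays. The single smooth muscle marker, Myh11, was not called either, with a difference of 0.45 (limma adjusted p = 0.809), and no blood marker was measured.

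Genes whose readings followed Klk1c2 most closely were ranked by Pearson's r of array-centred readings over the 16 arrays, as a description. Because Klk1c2 separates the groups, this order mostly reflects the group difference, and the arrays share their centring. Among 1095 other genes the highest r were those of Tnnt2, the cardiac and embryonic troponin T (0.92), Pcyt2, an enzyme of phosphatidylethanolamine synthesis (0.91), and Nrcam, a neuronal adhesion molecule (0.90). They were followed by the elongation factor Eef1a1 (0.88), Cox8a (0.86) and the calsequestrin Casq2 (0.85). Klk1b3 was 8th, with r = 0.81 and Spearman's rho = 0.88. The lowest r were those of the scaffold protein Pdzk1 (-0.84), of Mylk2 (-0.77) and of the lactate transporter Slc16a3 (-0.77).

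Within the 8 denervated arrays the same genes did not keep that likeness alike. Pcyt2 had r = 0.90 there, Casq2 0.78 and Klk1b3 0.77, while Tnnt2 had 0.14 and Nrcam -0.37. Within the 8 control arrays Nrcam had r = 0.66, Tnnt2 0.57, Klk1b3 0.34, Pcyt2 0.32 and Casq2 0.27. Tnnt2 and Pcyt2 were each at the floor on 4 control arrays. In control rats 3 and 5 both shared the floor reading with Klk1c2, so their r within control arrays comes partly from shared floors. Both kallikrein probes had their 2 lowest denervated readings in rats 3 and 4. Of the 6 genes with the highest r over all arrays, none was among the 6 highest once the group means had been taken out.

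The denervation genes showed no common pattern with Klk1c2 among the denervated muscles. Within that group r was -0.16 for Runx1, -0.31 for Myog, 0.66 for Ncam1 and -0.64 for Myh3 (n = 8). With 8 arrays such values are loosely determined.

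**Figure D5:**
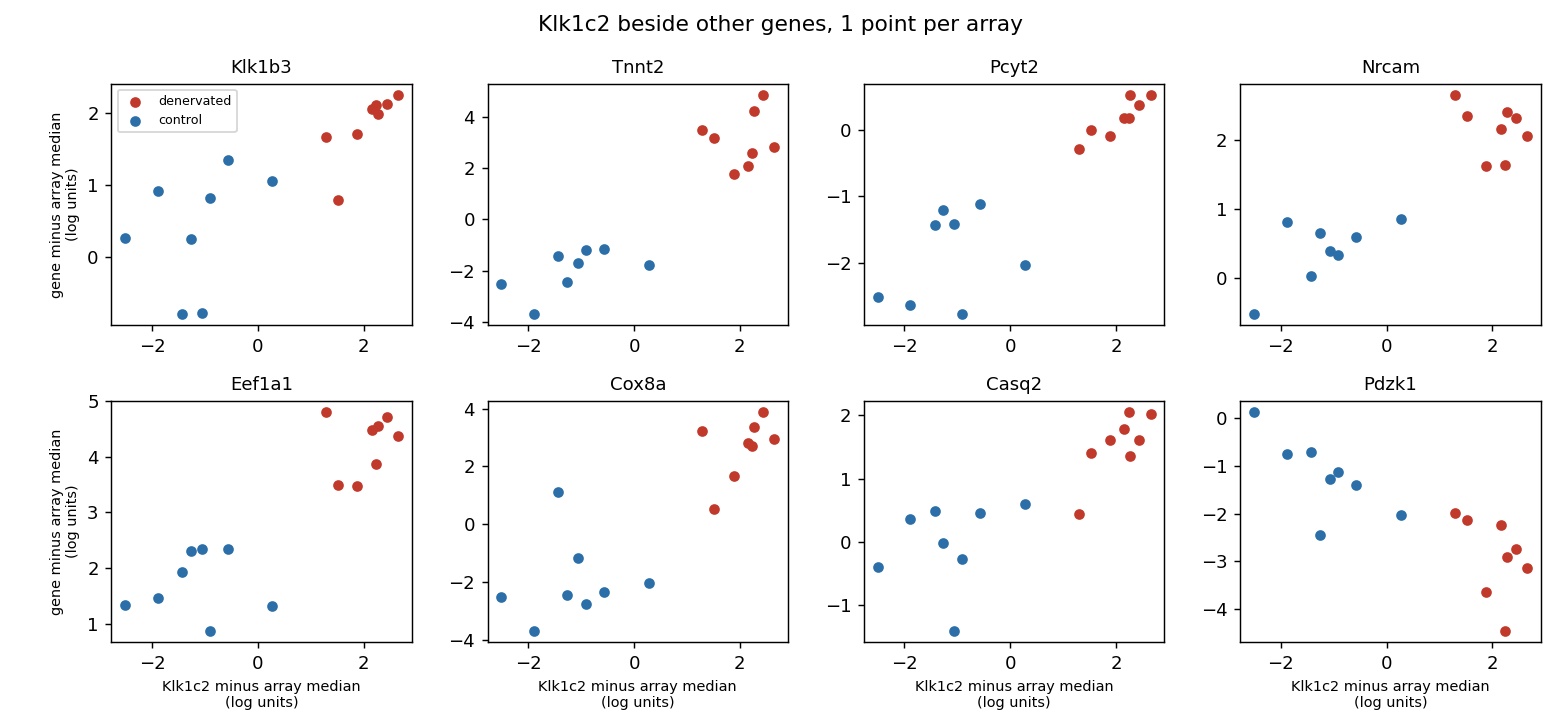
Reading of each named gene minus its array's median against the same quantity for Klk1c2, in log units, 1 point per array, denervated in red and control in blue. Klk1b3, Pcyt2 and Casq2 climb with Klk1c2 within the denervated arrays (r = 0.77, 0.90 and 0.78), whereas Nrcam does not (-0.37).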

How the data were processed

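RNA of 16 EDL muscles was measured on 16 Clontech Atlas rat nylon membranes. Per the labels, the authors took phosphorimager images, quantified them with Array Vision and applied a linear regression normalisation. What the authors deposited is a score whose spread shows a logarithmic scale, with base and background correction not given. It was used without further scaling. Of 1185 probes, 9 reference probes on another scale were left out. All of the remaining 1176 passed the filter (above 0 on at least 8 arrays). Of these, 1106 had 1 gene in the platform table, 2 several and 68 none. Where a gene had more than 1 probe (10 genes), that of highest mean stood for it. A reading within 0.01 of an array's lowest counted as at the floor.

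The test was limma's moderated, two-sided comparison with a variance trend (limma 3.58.1, R 4.3.3), with Benjamini-Hochberg adjustment over 1176 probes and a threshold of 0.05. Exact two-sided permutation tests ran over 12870 choices of 8 arrays. The procedure was tested on simulated data. The number of arrays limits the precision.

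The gene, lists and tests were chosen with earlier results of these data known. Named genes were the Klk probes, the 3 members of lowest p in each of 3 lists, the 3 neighbours on either side in the order of differences, the 6 highest and 3 lowest correlations, and 8 denervation or muscle genes. Other members of some lists are named, mostly where 5 or fewer were counted. They were chosen after their values were seen. Sequences came from RefSeq (GRCr8) and were aligned with Biopython 1.88. Tested alternatives were other scalings, blocks, variance estimates, filters, a common floor and leaving out each array. The labels do not establish a pairing, so the rat numbers were not taken as pairs in the main fit. Same-numbered rats correlated at 0.06 to 0.19 in their deviations from the group means, 7 of 8 pairs above 0.1. Of the 8 denervated arrays, 3 correlated best with the control array of their own number. Whether the numbers mark pairs or another shared factor was not tested, and a fit with rat number as a block is given as an alternative.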

Additional observations from a re-analysis of the deposited data

Results flagged for a closer look

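In 4 of 34 groups of 8 arrays, taken over 17 of the genes named with a difference, 1 reading lay far from its neighbours relative to the group's range. The 17 were Klk1c2, Klk1b3, Cox8a, Myh3, Runx1, Scd, Emb, S100a4, Myog, Ncam1, Mme, Agt, Dpp3, F3, Mug1, Pzp and Bdnf. Other genes given with a difference, among them most cell type markers, were not screened. Chance flags about 1 group in 20. In control muscle, rat 6, whose array was low over all probes, read 3.27 for Myh3, which is that array's floor, and 4.30 for Pzp. In denervated muscle, rat 3 read 7.12 for Scd and 8.15 for Agt. Neither Klk1c2 nor Klk1b3 had such a reading in either group.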

How the results depend on the processing

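The Klk1c2 difference stayed positive under every setting run, from 2.88 in rats 1 to 4 to 3.99 in rats 5 to 8, and from 3.17 to 3.66 without single arrays. Klk1b3 kept its call under every setting except rats 1 to 4 alone (1.56, limma adjusted p = 0.0905), and ranged from 1.50 to 1.85 without single arrays (limma adjusted p = 6.86e-04 to 0.0105). With rat number as a block, a pairing the labels do not establish, Klk1b3 stood at 1.66, and 113 probes were called in place of 74. The count was 131 with the sets of rats as a block, 30 in rats 1 to 4, 139 in rats 5 to 8, and 43 to 98 without single arrays. Leaving out denervated rat 1 or 6 gave 43 or 46, and leaving out control rat 5, 7 or 8 gave 49, 45 or 48. Centring moved the split from 64 higher and 10 lower to 35 and 15, and quantile normalisation to 35 and 27. In the kinin and angiotensin list 2 genes, Agt and Mme, were called after centring, after quantile normalisation and in rats 1 to 4, 1 with the rat block, and 0 to 1 without single arrays. In the protease list 1 was called with the rat block and with array weights (Mug1), and 1 with the set block and by exact permutation (F3), with 0 to 1 without single arrays. In rats 5 to 8, a set that includes the low array of control rat 6, Agt turned to 0.0297 and Mme to 0.0344. Bdnf turned to -0.0661 after centring, -0.17 after quantile normalisation, -0.0440 with a common floor, -0.30 in rats 1 to 4 and -0.23 with array weights, and ranged from -0.37 to 0.47 without single arrays. Without control rat 4, control rat 6, denervated rat 3 or denervated rat 5 it read -0.10, -0.37, -0.01 or -0.02. Of the 6 genes most like Klk1c2, 0 remained among the 6 highest for deviations from the group means, where the group difference is removed by construction. Causes were not otherwise tested. Readings at the floor limit what the control level of Klk1c2 can show.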
